A study of Mus musculus with 6 samples.

Results

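Sparc and its relatives were followed in newborn mouse lens through 14 Affymetrix probe sets that represent 9 genes, out of 20380 probe sets annotated to a single gene symbol and 12393 genes. The members are Sparc and Sparcl1, the testican genes Spock1, Spock2 and Spock3, the related genes Smoc1 and Smoc2, and the spondin genes Spon1 and Spon2. They were taken by gene symbol, but the family itself was chosen from values of this experiment: 1 probe set of Spock1 and 1 of Spon1 are on the study's list of transcripts that differ between the genotypes. The genotype differences of these 2 genes are therefore described without a test. RNA was measured in 3 Pax6 heterozygous and 3 wild-type samples, each holding both lenses of 1 pup at postnatal day 1. The heterozygous pups carry the lacZ allele (Pax6 lacZ/+), which leaves 1 working copy of the gene for the transcription factor Pax6 in every tissue and not in the lens alone. The wild-type pups were of the NMRI background, and the sources used here do not say whether the pups of the arrays were littermates.

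SPARC (osteonectin) is a secreted glycoprotein that binds collagens and calcium and takes part in the assembly of basement membranes. The lens capsule is such a membrane, and mice without Sparc develop cataract. Hevin (Sparcl1), the testicans and the SMOC proteins share with SPARC a follistatin-like domain and an extracellular calcium-binding domain, and the testicans also carry glycosaminoglycan chains. The spondins form a separate family of matrix proteins built around thrombospondin type 1 repeats. F-spondin (Spon1) is known from the floor plate of the neural tube, where it guides axons, and mindin (Spon2) from innate immunity.

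Sequences are shown for the members on which the comparison of the genotypes turns. By quantitative RT-PCR the paper reports both Spock1 and Spon1 as lower in heterozygous lenses. The primer pairs below are those the study designed for quantitative RT-PCR of Spock1 and Spon1, 5′ to 3′, with no letters marked.
Spock1, primer 1: ctcttcatgaggacgccaat
Spock1, primer 2: ggagtccttgcaaatgggta
Spon1, primer 1: gtaacgaggacctggagcag
Spon1, primer 2: attcagaccactgggaccac

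Promoters of Spock1 and Sparc are set side by side, since Spock1 was the testican listed by the study and Sparc the founding member of the family, with a difference near 0. Both come from RefSeq (build GRCm38.p6) and run 5′ to 3′ on the minus strand, from 250 bases before the annotated start to 50 bases after it. Capitals mark a match to the GC box GGGCGG, read on both strands. The Spock1 window lies at chr13:57908283-57908582 and the Sparc window at chr11:55420031-55420330.
Spock1 promoter: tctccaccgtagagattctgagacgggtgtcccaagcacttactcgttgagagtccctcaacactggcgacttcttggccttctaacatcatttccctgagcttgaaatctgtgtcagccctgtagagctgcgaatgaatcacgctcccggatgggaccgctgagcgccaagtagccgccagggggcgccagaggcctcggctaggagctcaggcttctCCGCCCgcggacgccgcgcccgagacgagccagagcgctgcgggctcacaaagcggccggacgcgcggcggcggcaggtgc
Sparc promoter: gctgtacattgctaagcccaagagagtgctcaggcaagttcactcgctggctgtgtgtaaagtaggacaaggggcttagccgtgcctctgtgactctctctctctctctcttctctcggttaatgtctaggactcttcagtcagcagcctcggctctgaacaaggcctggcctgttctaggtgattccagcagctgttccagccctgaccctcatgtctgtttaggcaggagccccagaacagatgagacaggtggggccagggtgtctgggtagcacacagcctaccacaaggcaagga

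The Spock1 window held 29 CG dinucleotides and 64.0% G and C, and the Sparc window 4 and 55.3%, against medians of 7 and 52.7% over 32851 windows of the same length. Spock1 had 1 GC box, a motif found in 35.7% of all windows, and Sparc had 0. The TATA box (TATAAA, in 13.6% of all windows), the CCAAT box (CCAAT, 37.4%) and the homeodomain site TAATTA (5.29%), each searched on both strands, matched neither window. The table held promoters for 4 of the 9 members, and Spock2 and Spock3 had 0 matches to any of these motifs. A match or its lack describes the letters of these windows only.

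Each value is an array signal on the linear scale, as the authors deposited it after robust multichip averaging (RMA). A probe set's signal depends on its probes as well as on the RNA, so that signals of different probe sets are not amounts that can be set against each other. Sums over a gene list are given only to compare samples, and bright probe sets weigh most in them. As a guide to background, the highest of 33 probe sets for olfactory receptor genes reached 12.8 to 17.6 in the 6 arrays. In unpaired tests on these values the targeted gene gave no clear check of the labels. The paper reports lower Pax6 transcripts in heterozygous lenses, both on the arrays and by quantitative RT-PCR. The brightest Pax6 probe set, 1419271_at, read 942, 1170 and 882 in Pax6 heterozygous lenses, against 1169, 1760 and 963 in wild-type lenses, and the heterozygous sample was the lower in 3 of 3 pairs with the same replicate number (76.9% of the wild-type mean; log2 difference −0.34 ± 0.24, standard error; exact permutation p = 0.3, two-sided, n = 3 each, where the smallest possible p is 0.1). Another Pax6 probe set, 1437816_at, went the other way, with 63.2, 57.4 and 85.6 in heterozygous and 51.2, 54.8 and 75.2 in wild-type lenses (0.19 ± 0.22), and the heterozygous sample was the lower in 0 of 3 pairs. The remaining Pax6 probe sets had lower means in heterozygous lenses. The difference was −0.69 ± 0.41 at 1452526_a_at (exact permutation p = 0.3) and −0.48 ± 0.23 at 1425960_s_at (exact permutation p = 0.2), each lower in 3 of 3 pairs. At 1456342_at, which lay at background, it was −0.11 ± 0.13, lower in 2 of 3 pairs. The labels number the samples 1 to 3 in each genotype. Samples with the same number deviated together from their genotype means, with correlations of 0.645, 0.734 and 0.604 across all probe sets, and differently numbered samples had correlations from −0.0751 to −0.496.

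Outside Spock1 and Spon1, no member passed the comparison of the genotypes. With limma, 0 of the 10 probe sets of the other 7 genes had an adjusted p under 0.05, as did 0% of all 22626 tested probe sets. At an unadjusted p under 0.05 there were 450 probe sets in all by limma and 665 by the methods' t-test, of which 0 passed after adjustment. For its list the study itself used a p under 0.1 in its test and under 0.05 in a template matching step, and it names no adjustment. At an unadjusted p under 0.1 the counts were 1029 by limma and 1327 by the methods' test. With the replicate number as a block 2 of all probe sets passed after adjustment, neither of them from the family. Of the same 10 probe sets, 0 had an unadjusted p under 0.05 in any of these 3 tests. For 3 of the 14 probe sets the heterozygous and wild-type values were fully apart, and all 3 were lower in Pax6 heterozygous lenses. Over all tested probe sets this was so for 6.18% in either direction and for 3.53% with heterozygous lenses lower. The 3 are the listed probe sets of Spock1 and Spon1 and a probe set of Spock2 at background, and nothing is read from the count, since the family was chosen on this contrast. The median log2 difference was −0.06 over the 14 probe sets and −0.01 over all, and for the 10 probe sets of the other 7 genes the differences ran from −0.25 to 0.20.

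**Figure D1:**
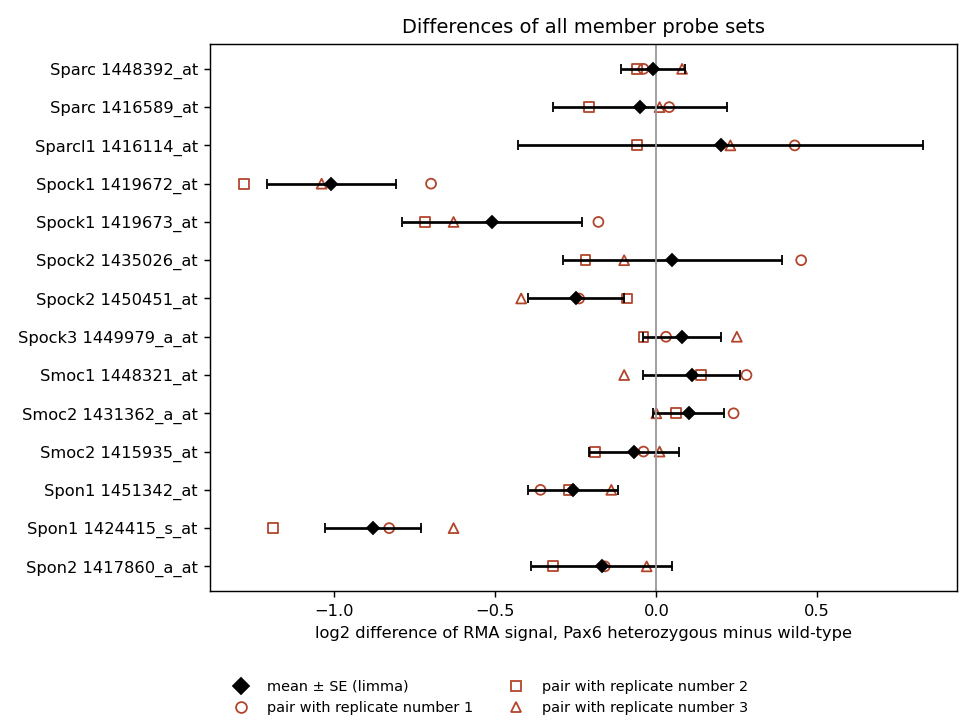
Log2 differences of RMA signal, Pax6 heterozygous minus wild-type, for all 14 probe sets of the family (rows). Diamonds and bars give the limma difference and its standard error, and open symbols the difference within each pair of samples of the same replicate number. All pairs of Spock1 and Spon1 lie left of 0 at each of their probe sets, and Sparcl1 has the widest bar (0.63).

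Spock1, which encodes testican-1, had lower signals in Pax6 heterozygous lenses at both of its probe sets. Testican-1 is a secreted proteoglycan of the brain and other tissues. The listed probe set 1419672_at read 99.8, 69.8 and 65.8 in heterozygous lenses, against 162, 170 and 135 in wild-type lenses. The highest heterozygous sample, replicate 1, lay below the lowest wild-type sample, replicate 3. The means were 78.5 ± 18.6 in heterozygous and 156 ± 18.4 in wild-type lenses (SD, n = 3 each), so that heterozygous lenses stood at 50.4% of wild-type, with a log2 difference of −1.01 ± 0.20 (standard error). Same-numbered pairs stood at 61.5%, 41.1% and 48.7%. In whole lenses, fewer cells of a type and less RNA per cell cannot be told apart.

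The second Spock1 probe set, 1419673_at, was dimmer and read 37.1, 22 and 37.9 in heterozygous lenses, against 42.0, 36.4 and 58.7 in wild-type lenses. Heterozygous replicates 1 and 3 lay above wild-type replicate 2, so that the genotypes overlapped. Within each same-numbered pair, however, the heterozygous sample was lower, at 88.3%, 60.6% and 64.6% of its wild-type counterpart. The log2 difference was −0.51 ± 0.28. Replicate 2 was the lowest sample of both genotypes at this probe set, while at 1419672_at it was the highest of the wild-type samples. The 12 measured retinal genes, taken as markers of neural tissue next to the lens, summed to 1685, 2026 and 1370 in heterozygous lenses, against 1403, 1148 and 1250 in wild-type lenses, with 8 of 12 log2 differences above 0 (46.5% over all probe sets) and 0 of 12 passing (limma). Of these 12 genes 4 are on the study's list. By gene, Otx2 read 442, 411 and 185 in heterozygous lenses, against 194, 156 and 156 in wild-type lenses. Stmn3 (0.78 ± 0.21) and Neurod1 (0.69 ± 0.17) were also higher. The 4 differences below 0 include Elavl4 (−0.50 ± 0.13), and Rcvrn read at most 10.5. The paper proposes that Pax6 suppresses neuron-specific genes such as Neurod1 in lens. The part of neural tissue in the Spock1 signal was not tested.

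Spon1, which encodes F-spondin, gave 2 probe sets of very different brightness, both annotated with the same cDNA. The bright probe set 1451342_at read 4753, 4680 and 5861 in Pax6 heterozygous lenses, against 6110, 5663 and 6458 in wild-type lenses. Heterozygous replicate 3 exceeded wild-type replicate 2, and the genotypes overlapped by that value. The means were 5098 ± 662 in heterozygous and 6077 ± 399 in wild-type lenses (SD, n = 3 each), or 83.9%, with a log2 difference of −0.26 ± 0.14. The pairs stood at 77.8%, 82.6% and 90.8%.

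The listed Spon1 probe set, 1424415_s_at, read 133, 121 and 162 in heterozygous lenses, against 237, 277 and 251 in wild-type lenses, and all heterozygous samples lay below all wild-type samples. The suffix of its name marks a set of probes that can match more than 1 transcript. Heterozygous lenses averaged 139 ± 21.0 and wild-type lenses 255 ± 20.3 (SD, n = 3 each), or 54.5%, a log2 difference of −0.88 ± 0.15. The pairs stood at 56.2%, 43.8% and 64.8%, so that replicate 3 was closest to wild-type at both Spon1 probe sets.

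**Figure D2:**
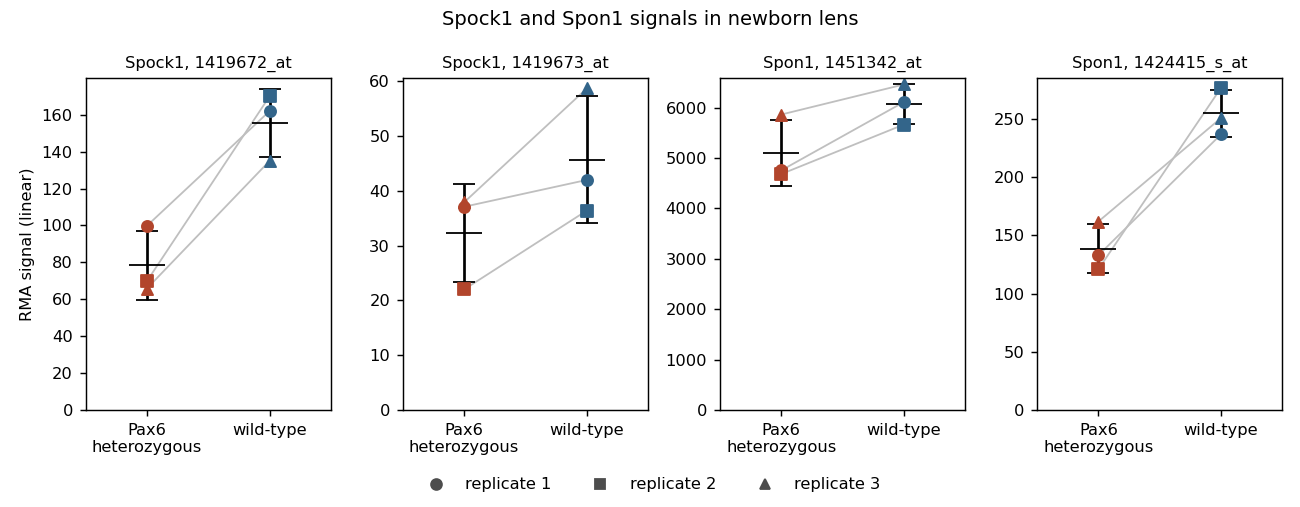
RMA signals (linear, each panel with its own axis from 0) of the 2 Spock1 and 2 Spon1 probe sets in Pax6 heterozygous and wild-type lenses. Symbols are samples, grey lines join samples of the same replicate number, and bars give the mean and SD of 3 samples. The genotypes are apart at 1419672_at and 1424415_s_at and overlap at the other probe sets, and every line runs lower on the heterozygous side.

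For Spon1, the log2 ratio within an array of 1424415_s_at to 1451342_at was −5.15, −5.27 and −5.17 in heterozygous lenses and −4.69, −4.35 and −4.69 in wild-type lenses, with no overlap and a difference of −0.62. This ratio cancels whatever moves both probe sets of an array alike. For Spock1 the ratio of 1419673_at to 1419672_at went the other way, with −1.43, −1.66 and −0.79 in heterozygous and −1.95, −2.22 and −1.20 in wild-type lenses, a difference of 0.50 with overlapping groups, and it was higher in the heterozygous sample in each same-numbered pair. These ratios come from the contrast on which the family was chosen and were not tested.

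**Figure D3:**
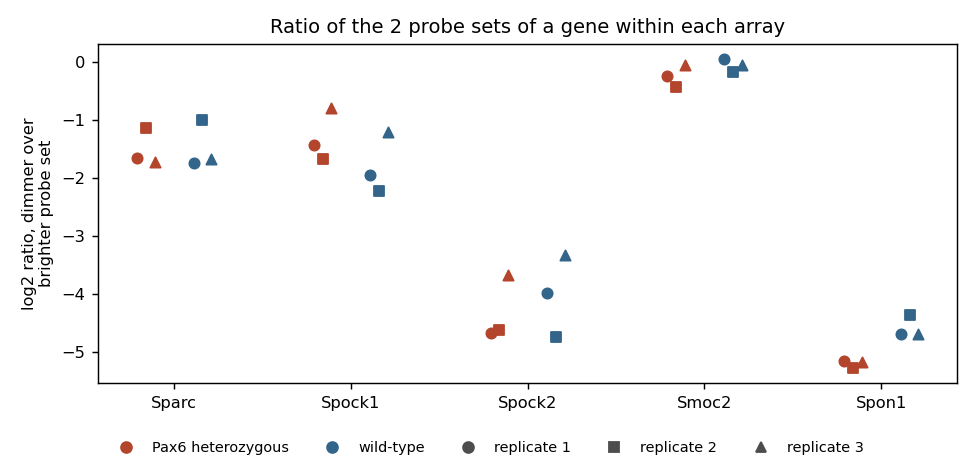
Log2 ratio of the dimmer to the brighter probe set within each array, for the 5 members with 2 probe sets. Colors give the genotype and symbols the replicate number. The 3 heterozygous values of Spon1 (−5.27 to −5.15) lie below all wild-type values (−4.69 to −4.35), whereas the genotypes overlap at the other genes.

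The 8 listed epithelium genes summed to 14086, 13904 and 15691 in heterozygous lenses, against 15696, 15105 and 16912 in wild-type lenses, lower in the heterozygous sample of each pair, with 5 of 8 genes below 0 (53.5% over all probe sets) and a median log2 difference of −0.18. Gja1 and Sfrp1 make up most of the sum. The list holds Pax6 itself and 1 gene of the study's list, and 0 of 8 passed (limma). Among them Pdgfra, a growth factor receptor of lens epithelial cells, read 431, 392 and 405 in heterozygous and 603, 558 and 692 in wild-type lenses. Of the 8 genes, Pdgfra alone had genotypes fully apart (6.18% of all probe sets did). Foxe3, a defining factor of this epithelium, was at 8.77 to 14.7 over all samples, in the range of the olfactory receptor maxima or below. The 3 genes above 0 were Gja1, a connexin of the epithelium (0.04 ± 0.17), Six3 (0.06 ± 0.15) and Mab21l1 (0.13 ± 0.60). Sfrp1 had a difference of −0.20 ± 0.13. The 14 measured crystallins, which mark the lens as a whole, summed to 158462 to 183447 in heterozygous and 160731 to 188326 in wild-type lenses. The part of the epithelium in the Spon1 and Spock1 values was not tested.

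Sparc, the collagen-binding founder of the family, showed the smallest difference at its bright probe set. 1448392_at read 8364, 8408 and 8567 in Pax6 heterozygous lenses, against 8622, 8791 and 8125 in wild-type lenses. The heterozygous values all lay inside the wild-type range, with means of 8446 ± 107 in heterozygous and 8513 ± 346 in wild-type lenses (SD, n = 3 each), a log2 difference of −0.01 ± 0.10 (limma, adjusted p = 1.00). The second probe set, 1416589_at, read 2663, 3829 and 2597 in heterozygous lenses, against 2582, 4418 and 2571 in wild-type lenses, a difference of −0.05 ± 0.27 (limma, adjusted p = 1.00). In both genotypes replicate 2 was the high sample here, at 1.46 times the mean of the others in heterozygous and 1.71 times in wild-type lenses, a pattern that 1448392_at did not show.

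Sparcl1, which encodes hevin, a SPARC relative known from vessel walls and astrocytes, varied more with the replicate number than between genotypes. 1416114_at read 571, 172 and 153 in Pax6 heterozygous lenses, against 424, 179 and 130 in wild-type lenses. Replicate 1 was high in both genotypes, at 3.51 times the mean of the others in heterozygous and 2.74 times in wild-type lenses. The log2 difference between genotypes was 0.20 ± 0.63 (limma, adjusted p = 1.00), and with the replicate number as a block its standard error was 0.13 (adjusted p = 0.695). The difference was −0.40 without heterozygous replicate 1 and 0.69 without wild-type replicate 1, the high samples of their genotypes.

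Vessel genes were high in the same samples as Sparcl1. The 12 endothelium genes summed to 3708, 1223 and 1138 in heterozygous lenses and to 2092, 996 and 878 in wild-type lenses, and 9 of the 12 were highest in replicate 1 of both genotypes, while 5 of the 12 had a median signal of at least 50. A large part of the replicate 1 sums was Flt1, a receptor for vascular endothelial growth factor, which read 1854, 140 and 225 in heterozygous and 914, 145 and 175 in wild-type lenses. Pecam1 and Cdh5, which define endothelial cells, read at most 20.6 and 26.9. The endothelium list also leaned to heterozygous lenses, with 11 of 12 log2 differences above 0 (46.5% over all probe sets), a median of 0.40 and 0 passing (limma). The 10 macrophage genes (1618, 1209 and 275 in heterozygous, against 1427, 473 and 457 in wild-type lenses) and the 6 measured pigment cell genes (1420, 625 and 712 in heterozygous, against 1372, 659 and 602 in wild-type lenses) were also highest in replicate 1. The 8 genes of glia, the other known source of hevin, summed to 652, 656 and 417 in heterozygous and 533, 425 and 584 in wild-type lenses. Differences above 0 numbered 9 of 10 for macrophage genes (median 0.30), 3 of 6 for pigment cell genes and 3 of 8 for glia. The part of these cells in the Sparcl1 signal was not tested.

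A fit with genotype and replicate number gave a test that does not use the contrast on which the family was chosen, and it was added after the values had been seen. For 3 of the 14 probe sets the signal differed by replicate number at an adjusted p under 0.05 (limma F test), against 19.4% of all tested probe sets. These were Sparcl1 at 1416114_at (adjusted p = 0.00706), Sparc at 1416589_at (adjusted p = 0.0270) and Spock2 at 1435026_at (adjusted p = 0.0405). The share among the members is close to that of the array as a whole. When any 1 sample was left out, Sparcl1 stayed under the threshold (0.0217 to 0.0378), Sparc did not (0.0646 to 0.164), and Spock2 ranged from 0.0333 to 0.194.

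Spock2, which encodes testican-2, a proteoglycan of the brain, read 215, 225 and 122 at 1435026_at in heterozygous lenses, against 157, 261 and 130 in wild-type lenses. Replicate 3 was the low sample of both genotypes, at 0.553 of the mean of the others in heterozygous and 0.620 in wild-type lenses. The genotypes overlapped, with a log2 difference of 0.05 ± 0.34 (limma, adjusted p = 1.00). The other Spock2 probe set, 1450451_at, read 8.45, 9.20 and 9.64 in heterozygous and 9.97, 9.76 and 12.9 in wild-type lenses. These values did not overlap, but all lay below the highest olfactory receptor probe set of their array, and the difference of −0.25 ± 0.15 did not pass (limma, adjusted p = 1.00).

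**Figure D4:**
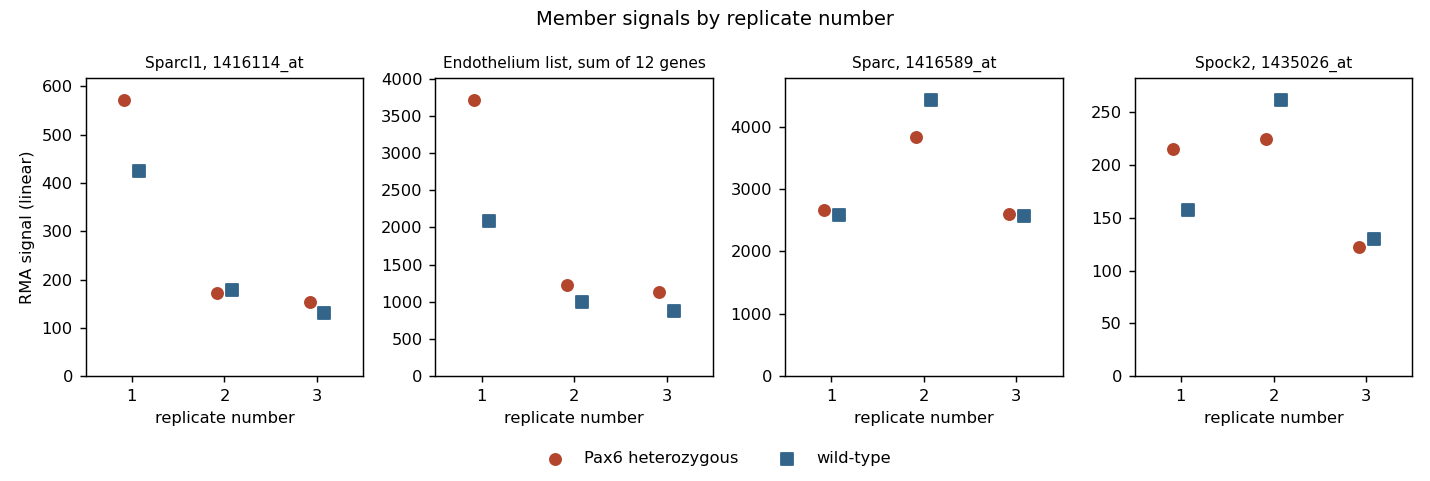
RMA signals (linear) by replicate number for Sparcl1, the sum of the 12 endothelium genes, Sparc at 1416589_at and Spock2 at 1435026_at, in Pax6 heterozygous and wild-type lenses. Each point is a sample. Sparcl1 and the endothelium sum are highest in replicate 1, Sparc in replicate 2, and Spock2 is lowest in replicate 3, in both genotypes.

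The remaining members were dim. Spock3, the third testican, read 19.4, 21.0 and 21.4 in heterozygous lenses and 18.9, 21.6 and 18.0 in wild-type lenses, above the highest olfactory receptor probe set in all 6 arrays, with a log2 difference of 0.08 ± 0.12. Smoc1, whose human counterpart is mutated in a syndrome of small eyes and limb defects, read 13.9 to 15.5 in heterozygous and 11.5 to 16 in wild-type lenses, above that level in 2 of 6 arrays, with a difference of 0.11 ± 0.15. Spon2 read 13.8, 18.2 and 14.0 in heterozygous and 15.4, 22.7 and 14.2 in wild-type lenses, highest in replicate 2 of both and above that level in 3 of 6 arrays, with a difference of −0.17 ± 0.22. The 2 probe sets of Smoc2, a gene linked to vessel growth, lay between 7.28 and 10.6 and below that level in every array, with differences of 0.10 ± 0.11 and −0.07 ± 0.14. The adjusted p was 1.00 for each of these probe sets (limma). Of the 14 probe sets 7, from 5 genes, had a median signal of at least 50, as did 39.2% of all tested probe sets.

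To place the members on the array, the probe sets of other genes with the most similar pattern over the 6 samples were sought among those with a median signal of at least 50. The points share arrays and normalization, and with 6 samples such correlations describe these arrays only. The listed Spock1 and Spon1 probe sets were chosen for their genotype difference, so genes with the same difference rank high by that choice. Of the genes named next to them, the paper's text gives Gaa, Celsr1 and Pygl as changed in lens. The other neighbors were not looked up in the study's list. The listed Spock1 probe set was followed most closely by Zfp385a, a zinc finger gene (r = 0.9820; 80.5, 73.5 and 71.0 in heterozygous and 102, 108 and 90.5 in wild-type lenses), Gaa, the lysosomal alpha-glucosidase (0.9744), and Chrna4, a nicotinic receptor subunit (0.9662). The listed Spon1 probe set was followed by Celsr1, an atypical cadherin of planar polarity (r = 0.9914; 552, 536 and 623 in heterozygous and 713, 823 and 771 in wild-type lenses), Pdrg1 (0.9783) and Pygl, a glycogen phosphorylase (0.9740).

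The bright Spon1 probe set was followed by Tenm3, a teneurin of the cell surface (r = 0.9886; 969, 930 and 1216 in heterozygous and 1206, 1171 and 1347 in wild-type lenses), Crcp (0.9764) and Pithd1 (0.9750), so that no gene was among the nearest 3 of both Spon1 probe sets. Sparcl1 was nearest to Cmc2 (r = 0.9921; 343, 200 and 177 in heterozygous and 325, 198 and 174 in wild-type lenses), Utp11 (0.9842) and Commd1 (0.9793). Spock2 at 1435026_at was nearest to Sdhb, a subunit of succinate dehydrogenase (r = 0.9896), Ddx50, a helicase (0.9855), and Timm10b (0.9849). Sparc at 1448392_at, which hardly varied, was nearest to Rpap3 (0.9797), Tmem115 (0.9782) and Palld, an actin-binding protein (0.9667).

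Other genes that share a domain with the family or act with its proteins were taken as 4 lists of 91 genes, 73 of them measured. With limma 0 of the 73 passed in either direction, and 4 had heterozygous and wild-type values that were fully apart (6.18% of all probe sets were). At an unadjusted p under 0.05 there were 3 of the 73 with limma, 8 with the replicate block and 2 by the methods' t-test, against 1.99%, 9.03% and 2.94% of all probe sets in the same order. The median log2 difference was −0.01, with 34 above 0 and 39 below, as for all probe sets (−0.01). Of the 19 measured matricellular relatives, which include the thrombospondins, tenascins and follistatin-like genes, the median was −0.02. Fstl1, a secreted follistatin-like SPARC relative, read 3072 ± 189 in heterozygous and 3461 ± 262 in wild-type lenses (SD, n = 3 each; −0.17 ± 0.12, standard error). Tnc, tenascin C, was lower without overlap but at background (8.68 to 11.7 in heterozygous and 12.4 to 14.5 in wild-type lenses). Fstl3 differed by 0.37 ± 0.25 and Thbs1, thrombospondin 1, by −0.25 ± 0.23.

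The 15 measured genes with thrombospondin repeats, the domain of the spondins, had a median of 0.14, with 10 above 0. Adamts10, a secreted metalloprotease, read 75.7, 71.1 and 77.6 in heterozygous lenses, against 64.4, 58.2 and 58.1 in wild-type lenses (0.31 ± 0.11), and its relative Adamts7 read 12.1 to 14 in heterozygous and 9.54 to 12 in wild-type lenses. Both are on the study's list, which was made from these samples. Rspo1, an R-spondin that enhances Wnt signals, differed by −0.33 ± 0.24 and Sema5a, a semaphorin, by −0.13 ± 0.15.

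The 11 collagens that SPARC binds or could meet in the capsule had a median of −0.06. Col1a1, a fibrillar collagen of connective tissue, read 351, 79.2 and 49.5 in heterozygous lenses, against 343, 98.3 and 324 in wild-type lenses, with the high values in replicate 1 of both genotypes and wild-type replicate 3. The 11 mesenchyme genes other than Col1a1 summed to 526, 366 and 237 in heterozygous and 412, 272 and 282 in wild-type lenses, high in replicate 1 of both genotypes but not in wild-type replicate 3. Col4a6, a basement membrane collagen, read 492 ± 18.8 in heterozygous and 542 ± 37.5 in wild-type lenses (SD, n = 3 each), and Col5a1 differed by 0.16 ± 0.18. The 28 measured receptors and protease targets had a median of −0.02. Mmp2, a matrix metalloprotease, read 130, 54.2 and 90.7 in heterozygous lenses, against 48.5, 48.6 and 48.4 in wild-type lenses (0.83 ± 0.30), so that the spread lay in the heterozygous samples alone. Aplp2, of the amyloid precursor family to which F-spondin binds, differed by −0.16 ± 0.13 and Itgb1, the integrin beta 1 chain, by −0.22 ± 0.21. For each gene named from these lists the adjusted p was 1.00 (limma).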

How the data were processed

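The deposited values are signal intensities on the linear scale, which the authors made by RMA from 6 arrays; the software version is not given in the sources used here. RMA removes background, brings the arrays to 1 distribution and merges the probes of each set, and it pulls ratios of dim probe sets toward 1. The methods state that the RNA was amplified before labeling. An array gives no read depth, and 3 samples per genotype limit the precision. The 64 control probe sets of 22690 were left out, log2 signals were computed, and 22626 probe sets were compared across the whole table with limma 3.58.1 in R 4.3.3 (Benjamini-Hochberg adjustment over all of them, threshold 0.05). Exact permutation used scipy 1.17.1, and figures were drawn with matplotlib 3.10.9. Symbols came from the platform annotation, of which 20351 probe sets matched a RefSeq gene by Entrez number.

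The members, gene lists and tests were chosen with earlier results of these data known. Named genes are all member probe sets, Pax6, the 3 genes per list with the smallest limma p at a median signal of at least 50, and the 3 probe sets most correlated with each bright or listed member. Tnc, Adamts7 and the single genes of the epithelium, endothelium and retina lists were named after their values were seen. Each list gene stands at its brightest probe set. The alternatives tried were array weights, the replicate block, a trended robust prior, the methods' t-test (log2 and linear values), quantile normalization, centring on each array's median, filters at median signals of 50 and 100, averaging a gene's probe sets, and leaving out each sample. Because all same-numbered correlations exceeded 0.1, the numbers were taken to pair the samples, though the sources do not say what they share. Unless the block is named, standard errors and adjusted p values of the genotype difference come from the fit without it. The permutation tests did not use the pairing. Over the member probe sets the standard errors ran from 0.10 to 0.63 without the block and from 0.10 to 0.15 with it. The replicate number test and its alternatives were added after the data were seen. The steps were tested on simulated data. The RT-PCR, chromatin and binding assays were not analysed here.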

Additional observations from a re-analysis of the deposited data

How the results depend on the processing

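Under each alternative, 0 members outside Spock1 and Spon1 and 0 of the related genes it tested passed the adjusted threshold (38 of the 73 related genes had a median signal of at least 50), and the adjusted p of these members ran from 0.591 to 1.00. Over all probe sets, 2 passed with the replicate block and 0 under the other settings, and the count at an unadjusted p under 0.05 was 2042 with the block, 125 at a median signal of at least 50 and 87 at 100, against 450. The block changed no call of a member outside Spock1 and Spon1. Leaving out 1 sample gave medians of the member differences from −0.16 (without heterozygous replicate 2 or wild-type replicate 3) to 0.02 (without wild-type replicate 2), and 3 to 7 member probe sets without overlap, 7 without wild-type replicate 2, where 15.3% of all probe sets were apart (12.7% to 16.5% over the 6 samples left out). This count was 2 of 14 with median centring and 4 of 14 with quantile normalization. It was 2 of the 7 member probe sets that either signal filter kept, and 2 of 9 genes with the mean of a gene's probe sets. The share over all probe sets was not computed for these settings, and nothing is read from these counts. With 1 sample left out, 1 to 3 member probe sets differed by replicate number, 1 without replicate 2 or 3 of either genotype. With quantile normalization and with median centring 4 did. For these replicate number counts, too, no share over all probe sets was computed, and nothing is read from them.

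The Spock1 and Spon1 differences kept their sign under each alternative that gave a value for their probe sets. The mean over a gene's probe sets gave none, nor did the signal filters for 1419673_at. With 1 sample left out they ran from −1.19 to −0.89 (1419672_at), −0.66 to −0.26 (1419673_at), −1.0 to −0.79 (1424415_s_at) and −0.36 to −0.20 (1451342_at). Both genes were chosen on this contrast. At 1419672_at and 1424415_s_at the genotypes were fully apart, so leaving out 1 sample could not change the sign. Nothing is read from the kept signs. Differences that changed sign when 1 sample was left out were those of Sparc (−0.04 to 0.01 at 1448392_at and −0.23 to 0.21 at 1416589_at), Sparcl1 (−0.40 to 0.69), Spock2 at 1435026_at (−0.17 to 0.34), Smoc1 (−0.02 to 0.22), Smoc2 at 1415935_at (−0.14 to 0.04) and Spon2 (−0.30 to 0.04). The causes were not tested. The Pax6 difference was 0.19 at probe set 1437816_at, with the heterozygous sample the lower in 0 of 3 pairs, and ran from −0.53 to −0.10 at 1419271_at with 1 sample left out. At the remaining Pax6 probe sets it was −0.69 (1452526_a_at), −0.48 (1425960_s_at) and −0.11 (1456342_at). Values of Smoc2 and of Spock2 at 1450451_at lie below the highest olfactory receptor probe set in every array and carry little information on the RNA, and those of Smoc1 and Spon2 lie near it.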
